A study of Mus musculus with 2 samples.

Results

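The C-type clustered protocadherins are Pcdhac1, Pcdhac2, Pcdhgc3, Pcdhgc4 and Pcdhgc5, and they were chosen by these names from the gene list of the count matrix, which gave 5 of 32285 genes. SPARC-seq reads RNA and open chromatin under shared barcodes, and it had been applied to brain tissue of E18.5 mouse embryos on the C57BL/6 background. Every sample was homozygous for the Ctcf mutation (CTCF-R567W, made by CRISPR/Cas9 editing), and the data were 1 RNA library and 1 chromatin accessibility library. The labels do not say how many embryos were used. SPARC-seq libraries of wild-type embryos were not analysed here, so no effect of the mutation could be measured and every comparison was made between genes or between spots of the same libraries. With 1 library per assay there was no replicate check and no test. The 95% intervals given below cover counting error only, and those of cut sites in peaks do not cover all of it.

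Clustered protocadherins are cell adhesion molecules of neurons, whose genes stand in 3 neighbouring clusters named alpha, beta and gamma. In the alpha and gamma clusters each gene has its own promoter and large first exon, which is spliced to constant exons shared by the whole cluster. Single neurons use a few of the alternate genes, in a choice that involves CTCF and cohesin. The C-type genes, at the end of the alpha and gamma clusters, are regulated apart from that choice and are known for broader neuronal use.

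All 5 genes lie on the + strand of chromosome 18 (GRCm38). Pcdhac1 (ENSMUSG00000103255) spans chr18:37090013-37187657 and Pcdhac2 (ENSMUSG00000102697) spans chr18:37143503-37187657. Their start sites are 53.5 kb apart. Pcdhgc3 (ENSMUSG00000102918) spans chr18:37806364-37841873, Pcdhgc4 (ENSMUSG00000023036) chr18:37815079-37841873 and Pcdhgc5 (ENSMUSG00000102543) chr18:37819513-37841873. The start sites of these gamma genes follow each other by 8.67 kb and 4.43 kb, and that of Pcdhgc3 lies 663 kb downstream of that of Pcdhac2. Each member shares 3 constant exons with its cluster, so only 47.2% to 62.1% of its exon bases belong to no other gene. How reads in the shared exons were assigned was not examined, and antisense genes (Gm10544 and Gm38097 in the alpha cluster, Gm29994 and BC037039 in the gamma cluster) overlap the members.

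The barcodes form a grid of 50 by 50 pairs of segments and are read here as spots that can hold several cells. The labels do not say what a barcode is, nor whether both libraries came from the same embryo or section, so joining RNA and accessibility by barcode is an assumption behind every accessibility ratio below. After filtering, 1992 spots had 8711132 UMIs, a median of 4157 per spot (907 to 12442), and a median of 21705 chromatin fragments (5759 to 87572). Ctcf itself had 734 UMIs, or 84.3 CPM (78.3 to 90.6; UMIs per 1000000 UMIs of the library), with no reference level to read it against. The neuron genes Tubb3 (4505 UMIs) and Stmn2 (5232 UMIs) were found in 83.4% and 88.2% of spots. The skeletal muscle genes Acta1 (6383 UMIs) and Ttn (5966 UMIs) were found in 86.6% and 86.2% of spots. UMIs of muscle genes were thus present in most spots of tissue labelled as brain. Fewer cells of a type and less RNA per cell cannot be told apart in such spots.

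RNA of the C-type genes was sparse and uneven. Pcdhac1, which needs another isoform to reach the cell surface, had 5 UMIs in 5 spots, or 0.574 CPM (0.186 to 1.34). Pcdhac2, which acts in the tiling of serotonergic axons, had 30 UMIs in 27 spots, or 3.44 CPM (2.32 to 4.92). Pcdhgc3, whose cytoplasmic domain binds Axin1 and which promotes dendrite growth in the cortex, had 48 UMIs in 47 spots, or 5.51 CPM (4.06 to 7.31). Pcdhgc4, the isoform required for the survival of neurons and of the newborn, had 159 UMIs in 152 spots, or 18.3 CPM (15.5 to 21.3). Pcdhgc5, an isoform known to become more abundant in the brain after birth, had 82 UMIs in 81 spots, or 9.41 CPM (7.49 to 11.7). Pcdhgc4 alone held 49.1% (43.5% to 54.7%, exact Clopper-Pearson interval) of the 324 C-type UMIs.

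Levels of different genes were set side by side per kb of exon that no other gene shares. On this scale Pcdhgc4 had 45.7 UMIs per kb, Pcdhgc5 17.8, Pcdhgc3 14.2, Pcdhac2 9.91 and Pcdhac1 1.95. Pcdhgc4 stood 2.57 times above Pcdhgc5 (1.96 to 3.40), and Pcdhac2 stood 5.07 times above Pcdhac1 (1.95 to 16.7). The neighbours between them could not be separated by counting error on this scale. The ratios were 1.25 for Pcdhgc5 over Pcdhgc3 (0.867 to 1.83) and 1.43 for Pcdhgc3 over Pcdhac2 (0.890 to 2.34). In raw UMIs Pcdhgc5 stood 1.71 times above Pcdhgc3 (1.18 to 2.49), so whether these 2 could be ordered depended on the scale. Annotated exons of Pcdhgc5 form a block of 5567 bp that runs into the first shared exon, 5508 bp from its TSS. How much of its 4606 bp of unshared exon is kept in spliced RNA was not examined. A smaller length would raise Pcdhgc5 per kb and lower the ratio of 2.57. The median per kb was 14.2 over the C-type genes, 8.43 over 18 variable gamma genes, 3.23 over 12 variable alpha genes and 0.364 over 22 beta genes. The classes overlapped, since Pcdhga12 with 146 UMIs reached 32.1 UMIs per kb. Pcdhac1, with 5 UMIs and 1.95 per kb (0.634 to 4.56), lay below all variable gamma genes. The lowest of these had 2.17 per kb (0.797 to 4.73), so this rank is within counting error. C-type genes made up 30.0% (27.3% to 32.8%) of the 1081 clustered protocadherin UMIs, 21.5% of those of the alpha cluster and 33.9% of those of the gamma cluster.

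Few spots held UMIs of more than 1 member, and each member was found in 0.251% (Pcdhac1) to 7.63% (Pcdhgc4) of spots. The overlap to expect from these shares alone was not computed. A UMI of exactly 1 member was found in 276 spots, UMIs of 2 members in 18, and of 3 in 0 of 1992 spots, which allows a share of up to 0.185% (upper exact bound). No spot had more than 3 UMIs of a member, and that value was reached once, by Pcdhgc4. At this depth a spot without a UMI cannot be read as a spot without expression.

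**Figure D1:**
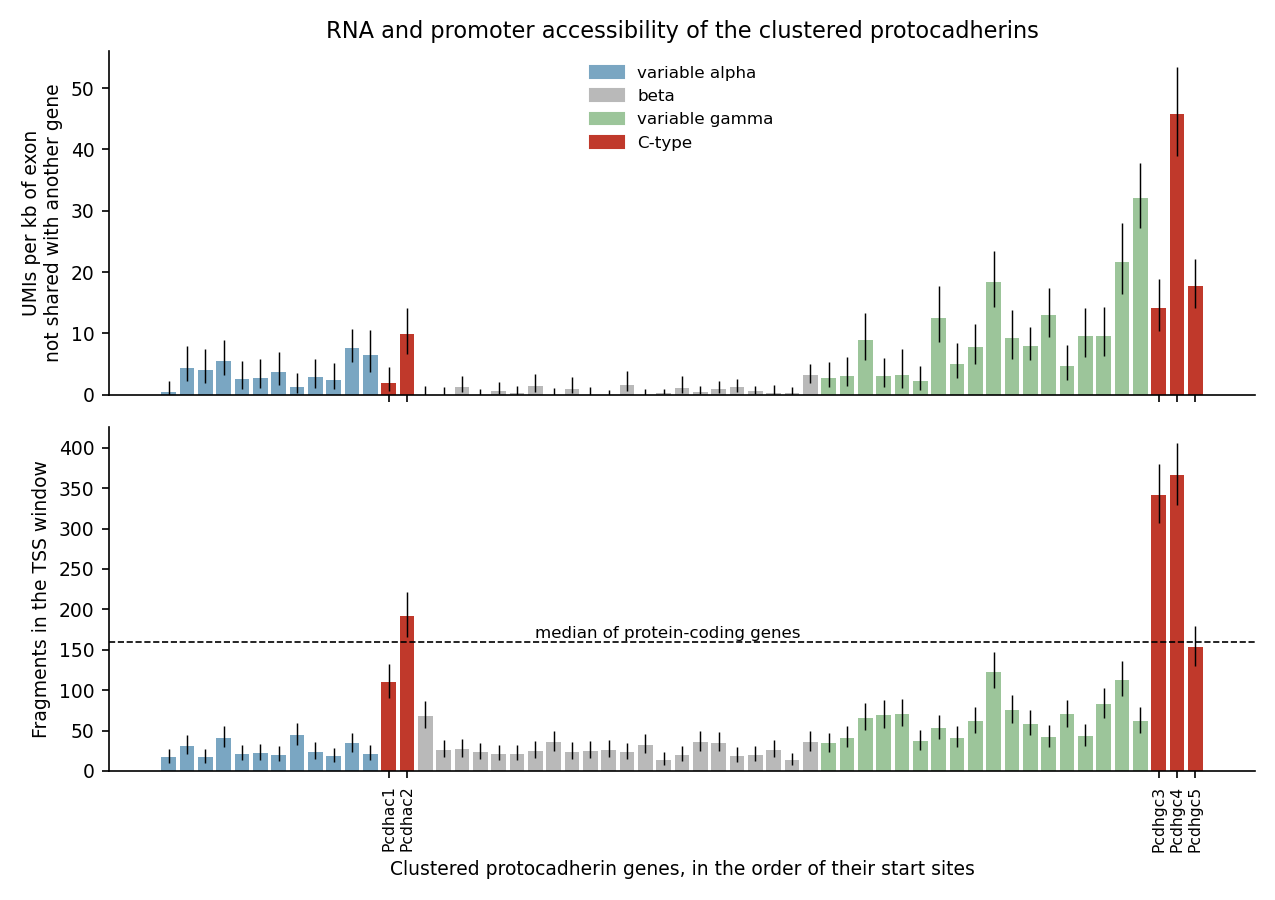
UMIs per kb of unshared exon (upper panel) and fragments within 1 kb of the start site (lower panel) for the 57 clustered protocadherin genes in genomic order, with exact 95% Poisson intervals as error bars and the 5 C-type genes in red. Pcdhgc4 has the tallest bar in both panels, Pcdhac1 is low in RNA but carries 110 fragments, and the dashed line marks the protein-coding median of 159 fragments.

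Promoter accessibility was counted as fragments that touch the TSS window, the 1 kb before and the 1 kb after the start site. Pcdhac1 had 110 fragments (90.4 to 133), Pcdhac2 192 (166 to 221), Pcdhgc3 342 (307 to 380), Pcdhgc4 366 (329 to 405) and Pcdhgc5 153 (130 to 179). The median of 21689 protein-coding TSS windows was 159, so that Pcdhgc4 and Pcdhgc3 lay at percentiles 79.8 and 77.4, Pcdhac2 at 55.8, Pcdhgc5 at 48.9 and Pcdhac1 at 40.9. Pcdhgc4 and Pcdhgc3 could not be ordered, with a ratio of 1.07 (0.921 to 1.24). In this window the other steps were larger than counting error. They were 1.78 for Pcdhgc3 over Pcdhac2 (1.49 to 2.14), 1.25 for Pcdhac2 over Pcdhgc5 (1.01 to 1.56) and 1.39 for Pcdhgc5 over Pcdhac1 (1.08 to 1.79). The order of Pcdhac2 and Pcdhgc5 depended on the setting. Over the protein-coding median they had 0.956 and 0.938 with a window of 500 bp. With only fragments shorter than the DNA around a nucleosome they had 0.803 and 0.944, the other order, with overlapping intervals. Under the other settings run Pcdhac2 stayed above Pcdhgc5. Of the 52 other clustered protocadherin promoters, Pcdhgb4 (123 fragments) and Pcdhga11 (113 fragments) reached the lowest C-type value. Promoters with most fragments in the other classes were Pcdhb1 with 68 and Pcdha8 with 44. Fragments per UMI ranged from 1.87 at Pcdhgc5 (1.42 to 2.47) and 2.30 at Pcdhgc4 to 22 at Pcdhac1 (9.15 to 69.1), so the order of the members differed between RNA and accessibility.

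The 5 promoters also differed in shape. At Pcdhgc3, 43.6% of transposase insertions within 2 kb fell within 250 bp of the TSS, against a protein-coding median of 31.6%, and the densest 150 bp were centred 75 bp upstream of the TSS with 260 insertions. At Pcdhgc4 the share was 26.5% and the densest stretch, with 159 insertions, lay 275 bp downstream. Pcdhac1 had a share of 32.4% and a small summit of 46 insertions next to the TSS. At Pcdhac2 and Pcdhgc5 the shares were 20.4% and 20.1%. Insertions at Pcdhac2 were spread over the first exon, with the densest stretch 825 bp downstream. Fragments shorter than the DNA around a nucleosome made up 47.7% at Pcdhgc3, 43.8% at Pcdhgc5, 42.3% at Pcdhgc4, 30.9% at Pcdhac1 and 29.7% at Pcdhac2, against a median of 47.2%. With these short fragments alone, Pcdhac1 stood at 0.479 and Pcdhac2 at 0.803 times the protein-coding median, from 0.692 and 1.21 with all fragments.

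**Figure D2:**
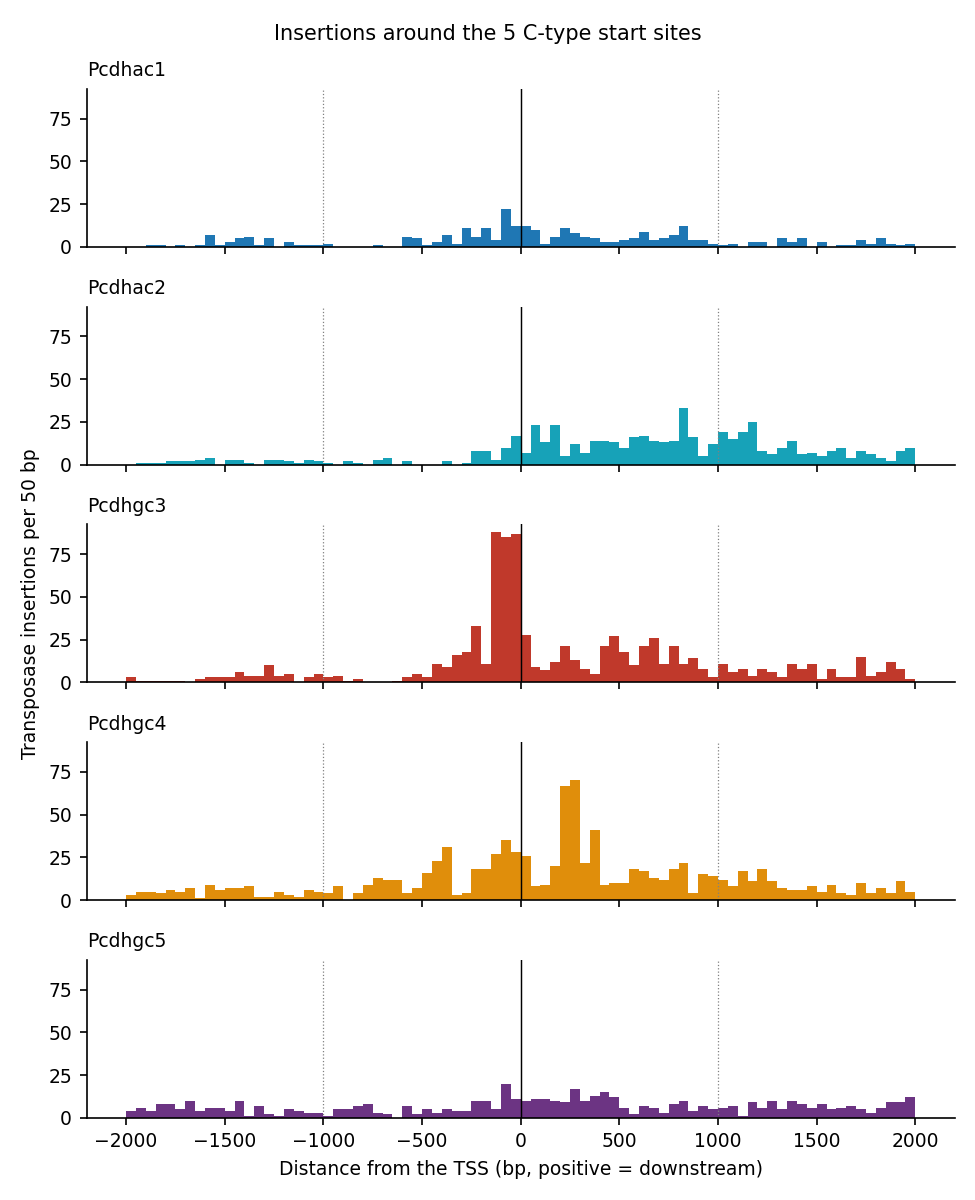
Transposase insertions per 50 bp against the distance from the start site in bp for the 5 C-type genes, with dotted lines at the edges of the TSS window. Pcdhgc3 has a sharp summit just upstream of the start site, Pcdhgc4 has its summit 275 bp downstream, and Pcdhac2 and Pcdhgc5 have no sharp summit.

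GC content of the TSS windows, which the choice of members did not use, was higher than at the alternate genes. It was 50.2% to 54.8% at the C-type promoters, with a median of 51.4%, within 0.1 percentage points of the protein-coding median. The medians were 41.7% at variable alpha, 42.1% at beta and 45.3% at variable gamma promoters, and the highest window of these classes had 47.2%. The ratio of observed to expected CpG was 0.835 at Pcdhgc3 (percentile 94.2 of protein-coding windows), 0.687 at Pcdhac2, 0.566 at Pcdhgc4, 0.538 at Pcdhac1 and 0.251 at Pcdhgc5 (percentile 29.5). By this ratio the classes overlapped, with 0.520 to 0.702 at variable alpha, 0.448 to 0.767 at variable gamma and 0.138 to 0.475 at beta promoters. The CTCF core consensus, searched by exact match on both strands, was found in 0 of 5 C-type windows, in 6 of 12 variable alpha windows, in no beta or variable gamma window, and in 1.22% of all protein-coding windows. Absence of a match says only that these letters are not in the window.

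Peaks called by the authors overlapped 4 of the 5 TSS windows. The peak at Pcdhac1 (chr18:37089581-37090400) had 138 cut sites, that at Pcdhac2 (chr18:37143419-37143941) 143, that at Pcdhgc3 (chr18:37805959-37806748) 453 and that at Pcdhgc4 (chr18:37814824-37815644) 419, whereas the median over all 91223 peaks was 105. Pcdhgc5 had no peak in its window. The first peak downstream of the window (chr18:37824058-37824764, 345 cut sites) was centred 4.90 kb past its TSS, within an annotated exon of the gene and shortly before the first shared gamma exon. The start site nearest to this peak was that of Gm38182, 532 bp from its centre. A peak was found at 1 of 12 variable alpha, 2 of 22 beta and 9 of 18 variable gamma windows, and at 62.7% of protein-coding windows.

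To ask how the members vary with the muscle and neuron content of spots, spots were ranked by the share of UMIs from Acta1 and Ttn and by the share from Tubb3 and Stmn2. Muscle-rich spots were the highest 20% (399 spots) and muscle-poor spots the lowest 50% (996 spots). Neuron-rich and neuron-poor spots were the highest and lowest 25% (498 each). Of the neuron-poor spots 157 were also muscle-rich, and of the neuron-rich spots 59, so the contrasts overlap. Over 12 muscle genes muscle-rich spots had 12609 CPM against 4286, and over 12 neuron genes 4953 CPM against 6584. Muscle-rich spots also had more fragments (median 27021 against 20793.5) and more short fragments (52.5% against 45.1%). Fibroblast and bone markers moved with muscle, with all 6 tested of 7 genes past 1.5-fold and 2512 CPM against 1077. Choroid plexus genes went the other way, with 899 CPM against 1514, a ratio of 0.594 (0.562 to 0.628), and 2 of 4 genes past 1.5-fold lower and 1 higher. Oligodendrocyte precursor genes were mixed, with a summed ratio of 1.08 (0.907 to 1.27) and 2 of 5 genes past 1.5-fold lower, while 3 of their 5 TSS windows were past it higher and 1 lower. The part of these differences in the results below was not tested, beyond the alternative spot sets given.

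Accessibility of the C-type promoters diverged between muscle-rich and muscle-poor spots. Pcdhac1 had 15 fragments in muscle-rich spots, or 10.9 FPM (fragments per 1000000 fragments in all TSS windows), and 60 or 25.9 FPM in muscle-poor spots, a ratio of 0.422 (0.223 to 0.752). Pcdhac2 had 33 against 112 fragments, or 24.0 against 48.3 FPM, a ratio of 0.497 (0.327 to 0.739). Both alpha members were thus lower in muscle-rich spots, with intervals that left out 1. Pcdhgc4 was lower to a smaller degree, with 78 against 175 fragments and a ratio of 0.752 (0.569 to 0.988), and Pcdhgc5 had 30 against 73 and 0.694 (0.438 to 1.07). Pcdhgc3 lay on the other side, with 114 against 140 fragments, 82.9 against 60.3 FPM and a ratio of 1.37 (1.06 to 1.77). Summed over the 5 genes the ratio was 0.814 (0.701 to 0.943), and the median of all TSS windows was 0.989. The TSS windows of the 12 neuron genes had a median ratio of 0.637, with 7 past 1.5-fold lower and 0 higher. Among them Tubb3 had 0.385 (0.286 to 0.511) and Stmn2 0.525 (0.376 to 0.723). Those of the 12 muscle genes had a median of 1.41, with 4 past 1.5-fold higher and 0 lower.

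With a ratio of at least 1.5 in either direction and at least 20 fragments as the rule, 2 of 5 members were lower and 0 were higher, while 12.6% and 10.2% of 26671 TSS windows were. Pcdhac1 lay at percentile 1.71 and Pcdhac2 at percentile 3.76 of these windows, Pcdhgc3 at percentile 85.1. The direct ratio of ratios between members had an interval without 1 in 4 of 10 pairs, each of which held Pcdhgc3. It was 0.308 for Pcdhac1 over Pcdhgc3 (0.154 to 0.585), 0.363 for Pcdhac2 over Pcdhgc3 (0.221 to 0.585), 1.82 for Pcdhgc3 over Pcdhgc4 (1.25 to 2.67) and 1.98 for Pcdhgc3 over Pcdhgc5 (1.18 to 3.36). These 4 pairs all use the same Pcdhgc3 ratio, so they are not 4 separate results. Pairs of other TSS windows were not compared, nor were the pairs under the other spot sets below. No correction was made for the number of pairs.

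Muscle-rich spots were unevenly spread over the grid. The 6 second segments with the highest muscle content held 14.0% of spots and 53.9% of muscle-rich spots. Without them, and with both groups drawn again from the remaining spots (343 and 858), the ratio was 0.813 for Pcdhac1 (0.423 to 1.48), 0.841 for Pcdhac2 (0.546 to 1.26), 1.08 for Pcdhgc3 (0.763 to 1.52), 1.02 for Pcdhgc4 (0.744 to 1.38), 1.15 for Pcdhgc5 (0.704 to 1.84) and 0.995 for the sum, and every interval held 1. Muscle-rich spots then had a median of 19.0 Acta1 and Ttn UMIs per 10000 in place of 25.4, so the contrast in muscle content was smaller too. With the groups kept as first drawn, less their spots in these segments (184 and 978 spots, with medians of 22.4 and 7.40 UMIs per 10000), the ratio was 0.616 for Pcdhac1 (0.217 to 1.42), 0.764 for Pcdhac2 (0.405 to 1.34), 1.09 for Pcdhgc3 (0.675 to 1.69), 0.916 for Pcdhgc4 (0.581 to 1.39) and 0.815 for Pcdhgc5 (0.375 to 1.59). These lay between the other sets of values, and every interval held 1. Among spots of similar fragment number (the middle 50% of spots) Pcdhac1 had a ratio of 1.01 (0.433 to 2.20), Pcdhac2 0.765 (0.451 to 1.25), Pcdhgc4 1.10 (0.744 to 1.60) and Pcdhgc3 1.28 (0.805 to 1.99), again with intervals that held 1.

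**Figure D3:**
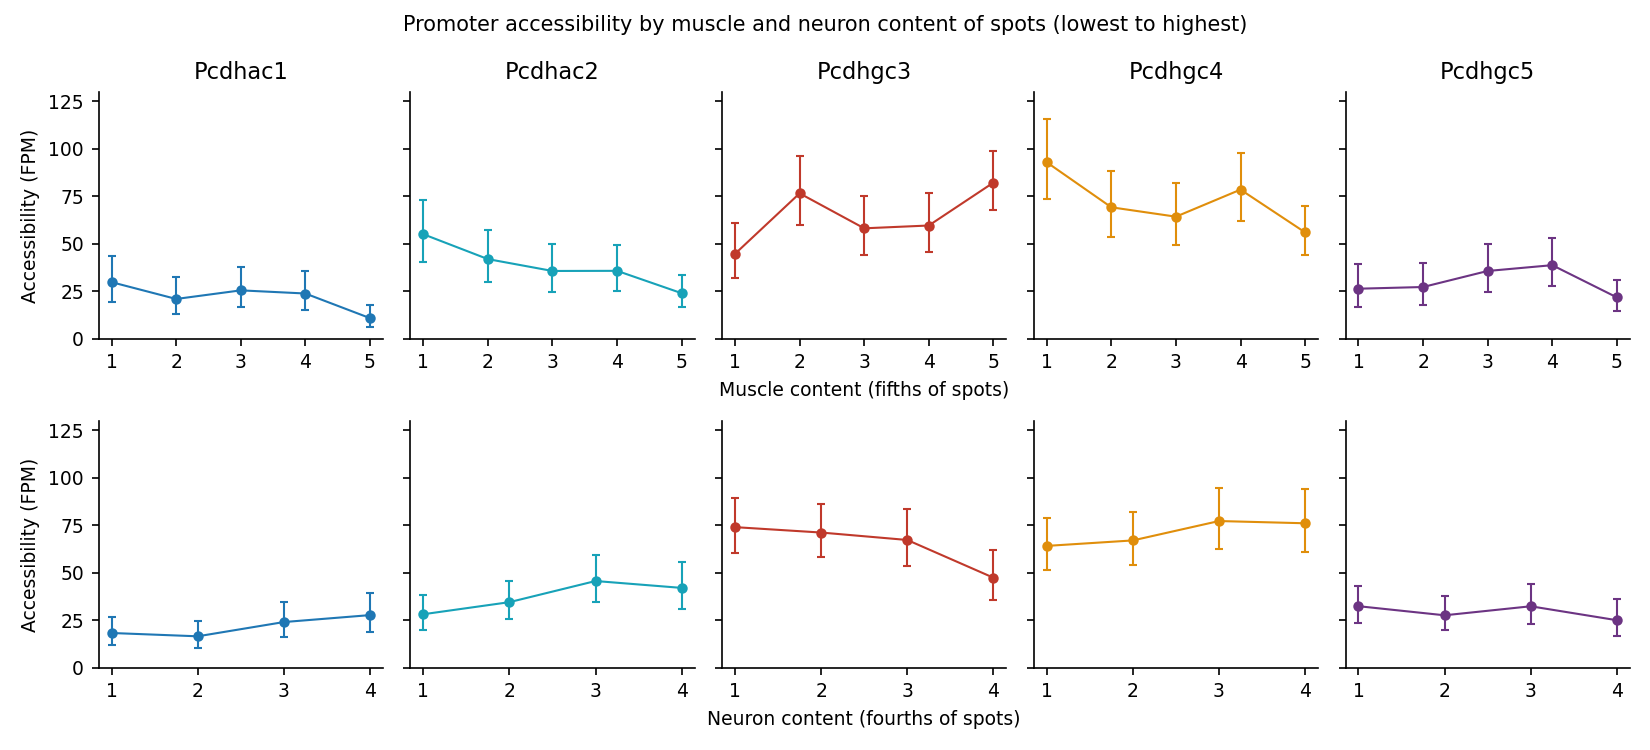
Accessibility in FPM (fragments in the TSS window per 1000000 fragments in all TSS windows) of each C-type gene, in 5 equal bins of spots by muscle content (upper row) and in 4 by neuron content (lower row), lowest content at the left, with exact 95% Poisson intervals. Pcdhac1 and Pcdhac2 are at their lowest in the most muscle-rich bin, where Pcdhgc3 is at its highest, and Pcdhgc3 is at its lowest in the most neuron-rich bin.

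Across the 5 bins of muscle content, the rate of Pcdhac2 went from 55.1 FPM in the lowest bin through 42.0, 35.7 and 35.8 to 24.0 in the highest. Pcdhac1 stayed between 20.99 and 29.8 FPM in the lower 4 bins and had 10.9 in the highest. Pcdhgc3 had 44.8 FPM in the lowest bin, 76.6, 58.2 and 59.7 in the next ones and 82.3 in the highest, which is not an even rise. Pcdhgc4 had its highest rate, 93.0, in the lowest bin and its lowest, 56.1, in the highest bin.

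Between neuron-rich and neuron-poor spots Pcdhgc3 lay at the low end and the alpha members at the high end. Pcdhgc3 had 53 fragments in neuron-rich and 105 in neuron-poor spots, or 47.5 against 74.1 FPM, a ratio of 0.641 (0.452 to 0.8997). Pcdhac1 had 31 against 26 fragments and a ratio of 1.51 (0.870 to 2.65), and Pcdhac2 had 47 against 40 and 1.49 (0.957 to 2.33). Pcdhgc4 with 1.19 (0.872 to 1.61) and Pcdhgc5 with 0.773 (0.465 to 1.26) also had intervals that held 1. With content from 12 neuron genes in place of 2, Pcdhgc4 had a ratio of 1.71 (1.27 to 2.31), and Pcdhac2 1.66 (1.07 to 2.59), both past 1.5-fold and with intervals without 1, while Pcdhac1 had 1.23 (0.686 to 2.19) and Pcdhgc5 1.19 (0.723 to 1.94). Without the 6 most muscle-rich segments Pcdhgc3 had 0.734 (0.492 to 1.09) and Pcdhac1 1.19 (0.653 to 2.18), both no longer past 1.5-fold, whereas Pcdhgc5 had 0.502 (0.284 to 0.863), past it and with an interval without 1. Pcdhac2 then had 1.19 (0.750 to 1.91). Among spots of similar fragment number Pcdhgc3 had 0.851 (0.506 to 1.42). By the 1.5-fold rule Pcdhac1 was higher and Pcdhgc3 lower, 1 of 5 members each, against 9.14% and 9.74% of 23904 TSS windows. Other markers were lower in neuron-rich spots too, with summed RNA ratios of 0.573 for 12 muscle genes (10 past 1.5-fold), 0.476 for fibroblast and bone genes (all 6 tested of 7), 0.311 for pituitary and 0.703 for choroid plexus genes. Neuron-rich spots also had fewer fragments (median 20322.5 against 22790) and fewer short fragments (44.9% against 49.6%). The part of these differences in the ratios was not tested, beyond the alternative sets given here. The pairs whose ratio of ratios left out 1 were 3 of 10, namely 2.35 for Pcdhac1 over Pcdhgc3 (1.22 to 4.59), 2.32 for Pcdhac2 over Pcdhgc3 (1.32 to 4.12) and 0.541 for Pcdhgc3 over Pcdhgc4 (0.338 to 0.862). All 3 use the same Pcdhgc3 ratio, and pairs of other TSS windows were not compared. Within muscle-poor spots alone the ratio was 0.861 for Pcdhgc3 (0.526 to 1.40), 2.09 for Pcdhac1 (0.970 to 4.77) and 1.24 for Pcdhac2 (0.715 to 2.18). With the short fragments alone, Pcdhac1 turned to 0.730 and Pcdhac2 to 0.932. For comparison, the promoters of the genes that define the contrast had ratios of 1.53 (Tubb3, 1.18 to 1.996) and 2.10 (Stmn2, 1.49 to 2.99).

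**Figure D4:**
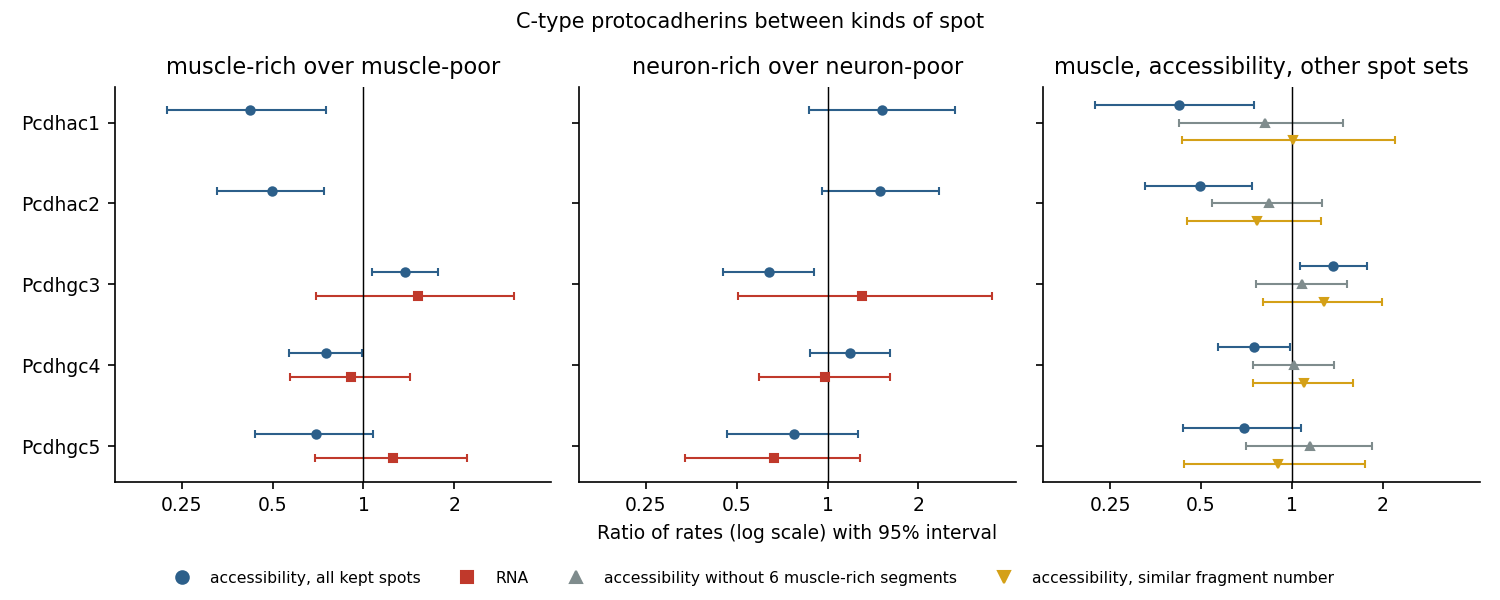
Ratios of rates with 95% intervals on a log axis for the 5 C-type genes, between muscle-rich and muscle-poor spots (left), neuron-rich and neuron-poor spots (middle), and for accessibility in the muscle contrast under other spot sets (right); RNA is drawn where a gene had at least 20 UMIs in the spots compared. Pcdhac1 and Pcdhac2 lie to the left of 1 and Pcdhgc3 to the right in the muscle contrast, and in the right panel the intervals of the other spot sets all hold 1.

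RNA ratios of the members had intervals that held 1 in both contrasts. In muscle-rich against muscle-poor spots Pcdhgc3 had 13 and 21 UMIs, a ratio of 1.51 (0.696 to 3.17). Pcdhgc4 had 28 and 75 UMIs and a ratio of 0.913 (0.569 to 1.43), and Pcdhgc5 had 20 and 39 and a ratio of 1.25 (0.693 to 2.20). Pcdhac2, with 3 and 13 UMIs, and Pcdhac1, with 1 and 3, were below the minimum of 20 UMIs. Of the 3 members above it, 1 was past 1.5-fold higher (Pcdhgc3) and 0 were lower, against 11.4% and 6.04% of 14631 genes. Between neuron-rich and neuron-poor spots Pcdhgc3 had 12 and 9 UMIs (ratio 1.30, 0.504 to 3.51), Pcdhgc4 35 and 35 (0.978, 0.595 to 1.61) and Pcdhgc5 17 and 25 (0.665, 0.337 to 1.28). With the highest and lowest 10% of spots by neuron content, however, the Pcdhgc5 ratio was 0.258 (0.0463 to 0.978), and it was 1.14 within muscle-poor spots. Here 1 of 3 was past 1.5-fold lower (Pcdhgc5) and 0 were higher, against 9.85% and 4.0% of 13563 genes. Over all 5 genes the ratio was 1.05 for muscle (0.774 to 1.42) and 0.939 for neuron content (0.668 to 1.32). A change within these intervals was not detectable at this depth. The genes that ranked the spots are fixed to differ, so the contrast is better described by the other list genes. The other 10 muscle genes had RNA ratios of 1.44 to 3.29 (median 2.65, 9 of 10 past 1.5-fold), whereas the other 10 neuron genes had 1.02 to 1.49 (median 1.25, 0 of 10 past it).

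Accessibility of a member was then compared between spots with and without a UMI of the same gene. The ratio was 1.48 for Pcdhac2 (4 fragments in 27 spots; 0.400 to 3.86), 0.802 for Pcdhgc3 (0.320 to 1.67), 0.894 for Pcdhgc4 (29 fragments in 152 spots; 0.590 to 1.31) and 1.14 for Pcdhgc5 (0.483 to 2.31). None of these 4 passed 1.5-fold in either direction, against 19.0% of 15560 genes, and the median over all these genes was 1.01. Under the other settings run, Pcdhgc3 reached 0.313 and Pcdhgc5 reached 1.69, both past that fold, while Pcdhac2 and Pcdhgc4 did not pass it. Pcdhac1 had no fragment in the 5 spots with its RNA and was not compared. If the barcodes are shared as assumed, no tie between a gene's RNA and its own promoter was detectable at this depth, and of the 4 intervals only that of Pcdhgc4 left out a 2-fold change in both directions.

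Peaks elsewhere in the locus, from 5 kb before Pcdha1 to 50 kb past the gamma cluster, gave the members' surroundings. The locus held 45 peaks. A fragment can leave both of its ends as cut sites in a peak, so cut sites are not independent counts. Intervals of cut-site ratios are therefore too narrow even for counting error. In the TSS window of Pcdhac1 the neuron ratio was 1.51 (0.870 to 2.65) by fragments and 1.52 (1.03 to 2.26) by insertions. By the 1.5-fold rule on cut sites, 10 of the 41 peaks outside the C-type windows were lower in muscle-rich spots and 6 were higher, against 22.9% and 18.4% of 90452 peaks. By muscle content these peaks were thus not set apart as a group. For neuron content 8 of 40 such peaks were higher and 5 lower, against 18.7% in each direction of 87940 peaks. At the C-type windows the peak-based ratios were 0.449 for Pcdhac1 (0.256 to 0.751), 0.519 for Pcdhac2 (0.318 to 0.820), 1.51 for Pcdhgc3 (1.22 to 1.88) and 0.828 for Pcdhgc4 (0.644 to 1.06). With the 6 segments left out and the groups drawn again they were 0.856 (0.481 to 1.46), 0.957 (0.586 to 1.52), 1.20 (0.888 to 1.60) and 1.05 (0.785 to 1.39). In neuron-rich over neuron-poor spots they were 1.66 for Pcdhac1 (1.01 to 2.76), 2.55 for Pcdhac2 (1.48 to 4.52), 0.717 for Pcdhgc3 (0.533 to 0.958) and 1.23 for Pcdhgc4 (0.928 to 1.64). At 2 of these 4 peaks the neuron ratio was past 1.5-fold higher and at 0 lower, against 18.7% in each direction of 87940 peaks. For muscle content 1 of the 4 was higher and 2 were lower, against 18.4% and 22.9% of 90452 peaks. Neuron ratios of peaks are not given for other spot sets.

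Large distal peaks lay on both sides. A peak 74.8 kb past the TSS of Pcdhac2, beyond the alpha cluster (chr18:37217830-37218686, 555 cut sites), had a muscle ratio of 0.457 (0.354 to 0.585) and a neuron ratio of 2.08 (1.62 to 2.68). Another 35.1 kb past that TSS (chr18:37178111-37179015, 351 cut sites), in an intron of the alpha genes and next to the start of Gm10544, had 0.646 (0.483 to 0.857) and 1.39 (1.01 to 1.93). The peak with most cut sites of those described here, 606, lay past the gamma cluster (chr18:37876989-37877976) and had 0.534 (0.423 to 0.670) and 1.24 (0.981 to 1.56). In contrast, a peak in an intron of the gamma genes 16.1 kb past the TSS of Pcdhgc5 (chr18:37835234-37836091, 316 cut sites) had 2.18 (1.67 to 2.86) and 0.691 (0.496 to 0.953). These peaks were picked after their values had been seen. Without the 6 most muscle-rich segments the muscle ratios of these 4 peaks were 0.974, 1.09, 0.796 and 0.980 in the same order, and their intervals held 1. Of all 45 peaks, 3 then had an interval below 1 and 2 an interval above 1, by intervals that are too narrow for cut sites. Those below included 2 large peaks past the gamma cluster, chr18:37851848-37852705 (479 cut sites) with 0.715 (0.529 to 0.952) and chr18:37879871-37880748 (526 cut sites) with 0.748 (0.559 to 0.989).

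**Figure D5:**
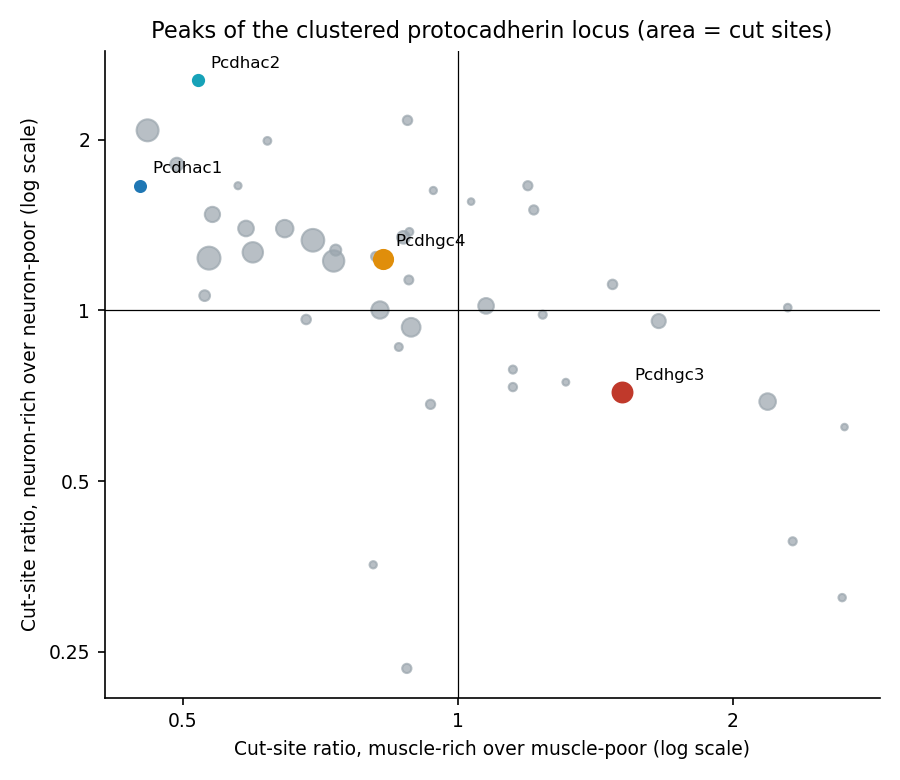
Cut-site ratio between muscle-rich and muscle-poor spots against that between neuron-rich and neuron-poor spots, both on log axes, for the 45 peaks of the clustered protocadherin locus, with the area of a point in proportion to its cut sites. The peaks at Pcdhac1 and Pcdhac2 lie at the upper left, that at Pcdhgc3 lies at the lower right and that at Pcdhgc4 between them.

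A list of 15 regulators of the clustered protocadherins (Ctcf, cohesin and its loaders and releasers, and DNA and histone methylation factors) had 0 of 15 genes past 1.5-fold in RNA in either contrast, with medians of 1.0003 for muscle and 1.02 for neuron content. Over all genes tested 11.4% were higher and 6.04% lower for muscle, and 4.0% and 9.85% for neuron content. The ratio of Ctcf was 0.978 (0.797 to 1.19) and 0.839 (0.674 to 1.04). A list of 12 partners of the protocadherin cytoplasmic domain and its signalling, such as the kinase gene Fyn with 0.859 and 1.05 and the actin-regulating Marcks with 0.884 and 1.14, also had 0 of 12 past that fold. The TSS window of the cohesin subunit gene Stag2 was past the fold in neuron-rich spots (37 against 74 fragments; 0.635, 0.416 to 0.954), and no partner was in either contrast. The summed promoters of the other classes had muscle ratios of 0.862 (variable alpha, 0.640 to 1.15), 0.929 (beta, 0.760 to 1.13) and 0.866 (variable gamma, 0.745 to 1.01), near that of the C-type sum. Their neuron ratios were 1.30 (0.936 to 1.82), 0.682 (0.534 to 0.868) and 1.12 (0.940 to 1.33), against 1.01 for the C-type sum (0.847 to 1.19).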

How the data were processed

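RNA and chromatin accessibility were measured by SPARC-seq in brain tissue, 1 library each. The authors deposited raw counts, namely UMI counts per gene, cut-site counts per peak, and fragments with the count of read pairs behind each. Per the file headers these came from cellranger-arc 2.0.1 with an mm10 reference, and the submitters' processing notes also name Seurat 4.0. A spot was kept if it had between 500 and 6000 genes and no more than 20% of its UMIs were mitochondrial, which removed 1 of 1993. Start sites were the upstream ends of the TSS spans in the feature list, with strands and exons from GENCODE M21. RNA rates are UMIs per 1000000 UMIs (CPM) and accessibility rates are fragments per 1000000 fragments in TSS windows (FPM). Intervals are exact Poisson, Clopper-Pearson or conditional binomial intervals at 95%, computed with Python 3.11.15, numpy 2.4.6, scipy 1.17.1 and pandas 2.3.3. Window counts were checked by direct counting of the deposited fragments for a random sample of genes, and ratio steps were tested on simulated data. Named genes were the members, the 4 content genes, Ctcf, the leading other gene of each cluster by UMIs and by fragments, leading genes of the lists, regulators past the fold (not all are reported here) and the 3 genes most alike over segments. Pcdhga11 was named after its value had been seen.

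The members, lists and contrasts were chosen with earlier results of these data known. Alternatives were other spot filters, windows, units and cuts of content. The sets without the 6 most muscle-rich segments (muscle contrast, with groups drawn again or kept) and with similar fragment number, and the content of other marker lists, were added after the data had been seen. Depth limits RNA most: the members had 5 to 159 UMIs each.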

Additional observations from a re-analysis of the deposited data

Results flagged for a closer look

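The fragment file held 507 barcodes that the count matrix did not. In the 5 C-type TSS windows these barcodes gave 82 fragments (65.2 to 102), a signal outside the barcodes compared above. By gene there were 7 at Pcdhac1, 10 at Pcdhac2, 25 at Pcdhgc3, 22 at Pcdhgc4 and 18 at Pcdhgc5. The summed rate was 188.0 FPM (fragments per 1000000 fragments in TSS windows) against 224.4 in kept spots, a ratio of 0.838 (0.661 to 1.05). No RNA is paired with these barcodes in the data used here.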

How the results depend on the processing

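Of 293 values of 36 results under other settings, 267 stayed within the interval of the value reported without being reversed, 20 moved out of it and 6 reversed. In the 6 reversed cases the value reported was past 1.5-fold and the alternative lay on the other side of 1, whether or not within the interval. Other values that crossed 1 are counted among the 267 or the 20. The cause was not tested. Fragments over the protein-coding median were 0.479 at Pcdhac1 and 0.803 at Pcdhac2 with short fragments alone, 0.956 at Pcdhac2 and 2.44 at Pcdhgc3 with a window of 500 bp, and 1.28 at Pcdhgc5 with a window of 2 kb. For muscle content, leaving out the 6 most muscle-rich second segments gave accessibility ratios of 0.813 (Pcdhac1), 0.841 (Pcdhac2), 1.02 (Pcdhgc4), 1.15 (Pcdhgc5) and 0.995 (sum), and spots of similar fragment number gave 1.01 (Pcdhac1), 0.765 (Pcdhac2), 1.10 (Pcdhgc4) and 1.02 (sum). The groups as first drawn, less those segments, gave 0.764 (Pcdhac2). The Pcdhac2 RNA ratio for muscle, on few UMIs, was 1.12 with a wider muscle-rich group and 1.87 without those segments. For neuron content, short fragments alone gave 0.730 (Pcdhac1) and 0.932 (Pcdhac2), and content from 12 neuron genes gave 1.71 (Pcdhgc4) and 1.20 (sum). The Pcdhgc5 RNA ratio was 1.01 with the highest and lowest 50% of spots, 0.258 with the highest and lowest 10% and 1.14 in muscle-poor spots, and the summed RNA ratio was 0.623 with 10%. Pcdhgc3 accessibility in spots with its UMI over spots without was 0.313 in muscle-poor spots. Pcdhgc3 accessibility ranged from 1.08 to 1.62 for muscle and from 0.577 to 0.861 for neuron content, on its reported side of 1 under every alternative run, but its interval held 1 for both contents without the 6 segments, at similar fragment number and with short fragments alone, for muscle also with the wider muscle-rich group and the groups as first drawn less those segments, and for neuron also in muscle-poor spots and with a window of 500 bp. No paired analysis was possible because each assay had 1 library, and no replicate could be left out.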

Other observations

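Content of other cell types was compared after the data had been seen, with the highest against the lowest 25% of spots for each of 10 marker lists. Ties at 0 made the low group larger for 4 of them, with 1274 spots for oligodendrocyte precursor, 754 for endothelial, 1382 for microglia and 1206 for pituitary genes. Pcdhgc3 accessibility had a ratio of 1.81 (1.31 to 2.53) by the 12 muscle genes and 1.55 (1.13 to 2.14) by fibroblast and bone genes, and 0.668 (0.474 to 0.931) by the 12 neuron genes. Pcdhac1 and Pcdhac2 had 0.562 (0.322 to 0.973) and 0.525 (0.341 to 0.803) by fibroblast and bone genes. Of the spots rich in fibroblast and bone genes, 47.4% were muscle-rich. Pcdhac2 had 1.66 (1.07 to 2.59) by neuron genes. Pcdhgc4, the member with most fragments, had 1.71 by neuron (1.27 to 2.31), 0.634 by muscle (0.476 to 0.844) and 0.676 by fibroblast and bone genes (0.496 to 0.920). It had 0.684 by erythroid (0.501 to 0.931), 0.746 by microglia (0.568 to 0.969) and 0.753 by pituitary genes (0.577 to 0.975). For the other lists its intervals held 1. Pcdhac1 also had ratios of 0.516 by pituitary (0.294 to 0.864) and 0.482 by choroid plexus genes (0.265 to 0.851). Radial glia and oligodendrocyte precursor content gave intervals that held 1 for every member, as did endothelial content except for Pcdhgc5 (0.624, 0.391 to 0.976). These are 50 ratios without correction for their number. Spots rich in different lists overlap, and the share of all TSS windows with intervals without 1 was not computed.

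Over 44 second barcode segments with at least 20 spots, the summed C-type accessibility was most like that of Traf7 (Spearman rho 0.409), Rab26os (0.390) and Hsd17b12 (0.385) among 198 genes with at least as many fragments, whose median was 0.0534. The segments share a library, and correlations this weak in sparse counts are given as a description.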
